A study of Mus musculus with 16 samples.

Results

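The non-clustered protocadherins are a family of cell adhesion genes, and 9 of them were examined out of the 24062 genes of the count table: Pcdh1, Pcdh7, Pcdh8, Pcdh9, Pcdh10, Pcdh17, Pcdh18, Pcdh19 and Pcdh20. They were chosen by symbol, and the family was picked because Pcdh10 was lower in the brains of mice that drank ethanol, so the Pcdh10 values below are a description and carry no p-value. RNA-seq was done on whole brains, cerebellum included, of 16 females of the inbred mouse strain C57BL/6J at postnatal day 45, with 1 library per mouse and 4 mice per group. WW mice had only water. NW mice drank a 200 µg/ml nicotine solution for 22 h a day and water in the drinking sessions. Water-Ethanol mice, shown by their initials in the plots, drank water and were offered 20% v/v ethanol in 4 daily drinking-in-the-dark sessions of 2 h, the last of them 4 h. NE mice were offered the same nicotine and the same ethanol, and all 16 mice went through the same change of bottles. The paper reports that nicotine-exposed mice drank more ethanol in the last session than Water-Ethanol mice and had higher blood ethanol. The brains were taken at the end of the last session.

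Protocadherins are the largest branch of the cadherin superfamily, transmembrane proteins whose extracellular cadherin repeats bind the same protein on a neighbouring cell. Unlike the alpha, beta and gamma protocadherins, which lie in gene clusters and give each neuron its own surface code, the non-clustered (delta) protocadherins are single genes, most of them with a single very large exon for the whole ectodomain. Pcdh1, Pcdh7 and Pcdh9 belong to the delta1 group, whose tail carries a motif that binds protein phosphatase 1. Pcdh8, Pcdh10, Pcdh17, Pcdh18 and Pcdh19 belong to the delta2 group, several of which recruit the WAVE complex, a regulator of actin branching, and so shape axon growth and synapses. Pcdh20 is placed outside these groups. In the brain they are known for region-specific expression and for parts in axon guidance, synapse formation and synapse loss, and PCDH19 and PCDH10 are linked to epilepsy and autism in people.

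The sequence just before the transcription start is shown for Pcdh10, the gene that the family was picked for, for Pcdh17, the member with the highest correlation with Pcdh10 over all 16 mice (though not when NW replicate 7 is left out), and for Pcdh8, the activity-regulated member. Sequences are those of RefSeq on GRCm38.p6, are 250 bases long and run 5′ to 3′ on the gene's strand. Capitals mark matches on either strand to 4 motifs: the cyclic AMP response element TGACGTCA, the GC box GGGCGG, the CCAAT box CCAAT and the TATA box TATAAA. The windows are chr3:45378148-45378397 on the plus strand for Pcdh10, chr14:84443313-84443562 on the plus strand for Pcdh17 and chr14:79771313-79771562 on the minus strand for Pcdh8.
Pcdh10: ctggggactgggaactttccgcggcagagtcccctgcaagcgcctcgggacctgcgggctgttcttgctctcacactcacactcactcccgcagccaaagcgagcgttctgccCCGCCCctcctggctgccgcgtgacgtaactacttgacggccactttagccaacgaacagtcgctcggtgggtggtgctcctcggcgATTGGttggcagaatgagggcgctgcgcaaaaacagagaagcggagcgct
Pcdh17: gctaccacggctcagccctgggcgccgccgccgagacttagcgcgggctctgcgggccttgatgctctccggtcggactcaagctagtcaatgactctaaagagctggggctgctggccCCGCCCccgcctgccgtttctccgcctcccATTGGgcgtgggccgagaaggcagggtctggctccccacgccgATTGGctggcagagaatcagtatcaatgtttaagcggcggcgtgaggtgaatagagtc
Pcdh8: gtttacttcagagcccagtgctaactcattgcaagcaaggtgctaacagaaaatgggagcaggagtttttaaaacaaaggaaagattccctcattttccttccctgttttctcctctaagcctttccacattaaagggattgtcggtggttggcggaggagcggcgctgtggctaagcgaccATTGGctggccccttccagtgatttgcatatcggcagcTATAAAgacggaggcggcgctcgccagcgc
No marked match overlapped another. The Pcdh10 and Pcdh17 windows both held a GC box and a CCAAT box and had 22 and 21 CpG dinucleotides, against a median of 6 over the 32851 promoters of the table. The Pcdh8 window had 11 CpG, a CCAAT box and the only TATA box among the members. Windows were found for 8 of the 9 members (Pcdh1 had none, Pcdh9 had 2 that nearly coincide). A GC box was in those of Pcdh10, Pcdh17, Pcdh18 and Pcdh19 and in 32.7% of all promoters. A CCAAT box was in all but Pcdh7, against 33.8% of all promoters. The TATA box was in 12.4% and the cyclic AMP response element in 1.55% of all promoters, and no member's window held the latter. Pcdh20, with 3 CpG, had the fewest of the members. A match is a description of the letters and not a bound site.

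The libraries were deep and alike in read number, though not in all markers. Counted reads per mouse ran from 27100352 to 32880979, and the members had from 303 raw counts (the lowest library for Pcdh18) to 8307 (the highest for Pcdh10). Neuronal, glial and vascular markers of brain were all present, and the pituitary markers were too low to be tested. NW replicate 10 nevertheless had 8.21 FPKM of Gh and 11.7 FPKM of Prl. The next highest mouse, WW replicate 19, had 0.555 and 2.35 FPKM. Markers of cerebellar granule cells were low in WW replicate 21 (summed level 112.6 FPKM) and NW replicate 10 (142.3 FPKM), whereas the median was 308.4 FPKM in WW and at least 285.6 FPKM was found in every Water-Ethanol and NE mouse. FPKM divides a gene's fragments by its transcript length and by the size of the library, and it allows genes to be compared with each other. Normalised counts are raw counts scaled to a common library size and compare mice for the same gene. Replicate numbers are those of the labels. In bulk tissue, fewer cells of a type and less RNA per cell cannot be told apart.

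All 9 members were expressed in whole brain, at widely different levels. Pcdh10 had the highest mean level, 38.7 FPKM over 16 mice (range 34.98 to 42.87), and stood at the 86.0th percentile of the genes tested. Pcdh9 followed at 37.46 FPKM (33.51 to 40.77). These neighbours did not differ beyond their spread, since Pcdh10 was the higher of them in only 10 of 16 mice. Pcdh1 at 28.95 FPKM and Pcdh7 at 24.17 FPKM came next, and Pcdh1 was above Pcdh7 in 16 of 16 mice although their ranges overlapped. Pcdh17 was at 16.18 FPKM. Pcdh8 at 9.965 FPKM and Pcdh20 at 9.65 FPKM were not separated either, with Pcdh8 higher in 9 of 16 mice. Pcdh19 was at 6.963 FPKM, and Pcdh18 was the lowest member at 2.525 FPKM, the 26.4th percentile. The highest mean was 15.3 times the lowest, while the coefficient of variation of each member over all mice was only 5.22% (Pcdh17) to 8.72% (Pcdh18). Differences between groups were therefore small beside differences between members.

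**Figure D1:**
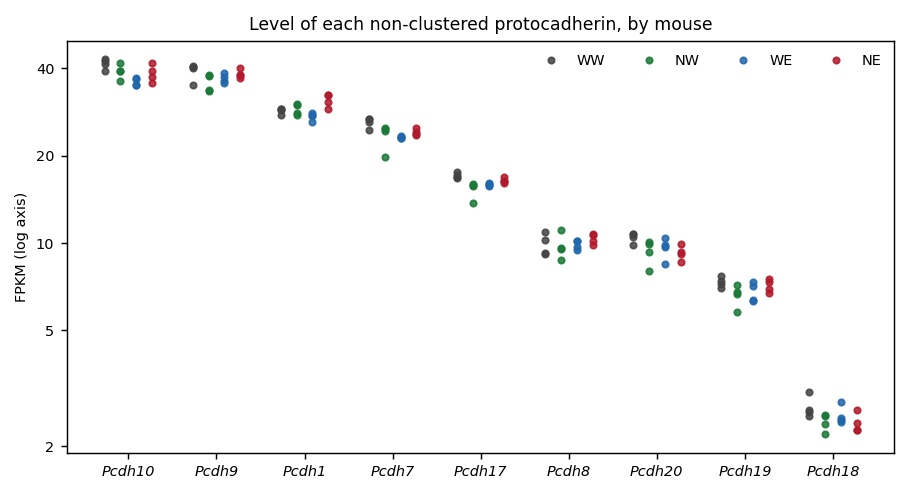
Level of each member in each mouse, in FPKM on a log axis, with members ordered by mean level and mice coloured by group. Pcdh10 and Pcdh9 share the top between 33.51 and 42.87 FPKM, and Pcdh18 lies apart at the bottom between 2.2 and 3.069 FPKM.

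Pcdh10, a delta2 member known to promote the removal of excitatory synapses, had its highest counts in the water-only mice. The WW mice had normalised counts of 8144, 7970, 8077 and 8416. The Water-Ethanol mice had 7057, 6811, 6834 and 6991. The NW mice had 6030, 7210, 7637 and 7328, and the NE mice had 6762, 7556, 7217 and 7149. Every mouse of the 3 treated groups was thus below every WW mouse, and the treated groups overlapped each other. Relative to WW, the log2 fold change was -0.23 ± 0.033 (SE) in Water-Ethanol, -0.21 ± 0.065 in NW and -0.18 ± 0.038 in NE, or -14.9%, -13.4% and -11.9%. These comparisons share the same 4 WW mice. The choice of the gene rested on its ethanol values, so its separation from WW is not evidence of its own. For ethanol on top of nicotine the value was small and its sign uncertain. NE against NW, which shares no mouse with Water-Ethanol against WW, gave a log2 fold change of 0.021 ± 0.064, with an approximate 95% interval of -0.11 to 0.15.

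**Figure D2:**
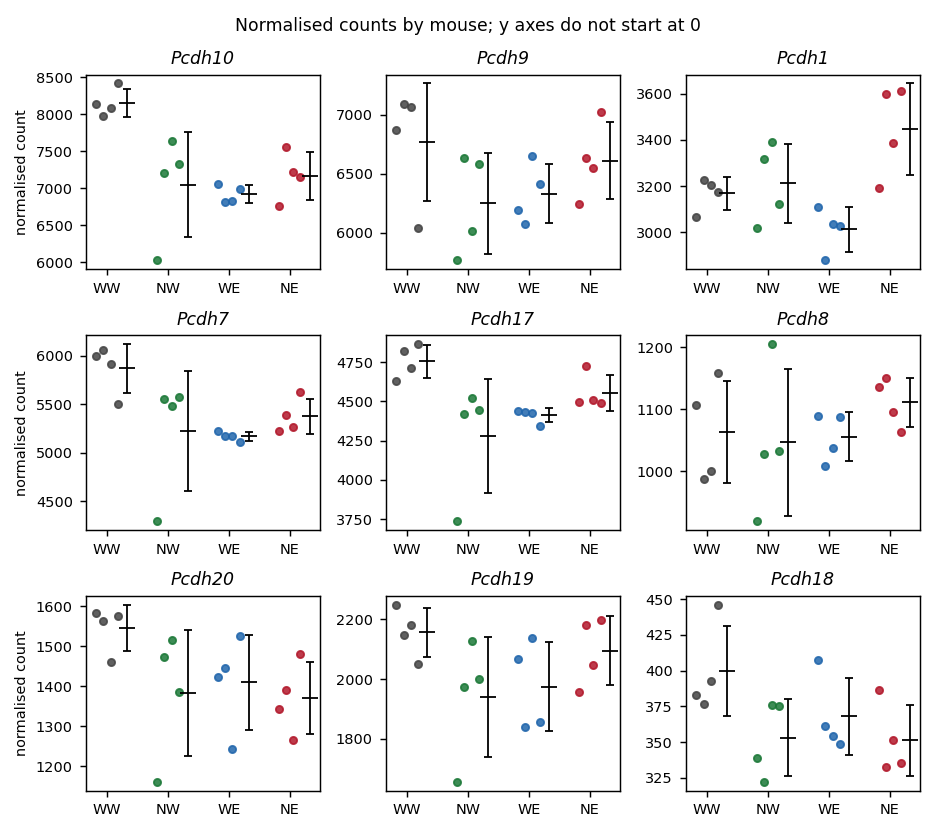
Normalised counts of each member by mouse, 1 panel per gene with its own axis that does not start at 0; points are mice, and the bar beside them is the mean ± SD of the 4 mice of that group. In the Pcdh10 panel every treated mouse is below the lowest WW mouse at 7970, and NW replicate 7 is the lowest NW point in 8 of the 9 panels.

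For Pcdh10 the deposited counts and the deposited FPKM gave different sizes for the same mice. On the FPKM scale the means were 41.4 ± 1.62 (SD, n = 4) in WW, 35.91 ± 1.04 in Water-Ethanol, 39.02 ± 2.28 in NW and 38.49 ± 2.6 in NE, so that only Water-Ethanol stayed clear of WW. The WW mice had 41.39, 39.15, 42.19 and 42.87 FPKM. The NW mice had 36.12, 39.1, 41.69 and 39.16 FPKM, and the NE mice had 35.66, 41.73, 39.18 and 37.38 FPKM, which overlap WW. The Water-Ethanol mice, at 36.96, 34.98, 35.05 and 36.66 FPKM, did not overlap. On log2(FPKM + 1) the difference from WW was -0.20 in Water-Ethanol, -0.085 in NW and -0.10 in NE.

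The ratio of the 2 values, the normalised count per FPKM, makes this plain, because it is the same in every library, up to a factor common to all genes, when a gene's transcript length is treated alike. For Pcdh10 it was 196.8, 203.5, 191.4 and 196.3 in the WW mice and 167.0, 184.4, 183.2 and 187.1 in the NW mice. In NE it was 189.7, 181.1, 184.2 and 191.2, and in Water-Ethanol 190.9, 194.7, 194.9 and 190.7. All NW and all NE mice were below all WW mice, NE replicate 5 by a narrow margin, and NW replicate 7 was the lowest. With the median over genes removed from each library, the log2 difference from WW was -0.13 in NW, -0.077 in NE and -0.025 in Water-Ethanol. Among 13107 genes with a mean of at least 1 FPKM, only 0.641% had a difference as low as that of Pcdh10 in NW and 1.39% in NE, against 7.58% in Water-Ethanol. The other 8 members stayed between -0.017 and 0.015 in every group. What set the ratio of Pcdh10 apart was not tested. The count table lists 7 exons and 11797 exonic bases for this gene, the largest exonic length among the members.

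**Figure D3:**
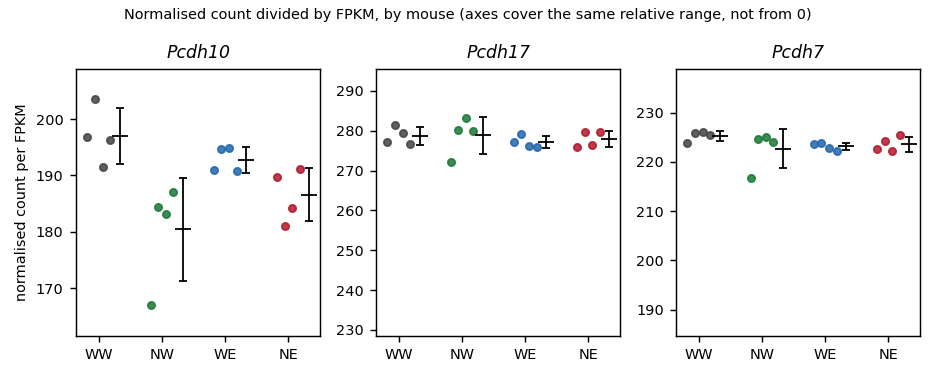
Normalised count divided by FPKM for Pcdh10, Pcdh17 and Pcdh7 in each mouse, with the mean ± SD of each group of 4; the axes span the same relative range and do not start at 0. The Pcdh10 mean is 197.0 in WW and 180.4 in NW, while those of Pcdh17 are 278.7 and 278.8.

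Pcdh17, a delta2 member that assembles at synapses of corticostriatal circuits and recruits the WAVE complex in growing axons, was also highest in WW. The WW mice had normalised counts of 4627, 4817, 4713 and 4863. The NW mice had 3739, 4417, 4524 and 4443, and the Water-Ethanol mice had 4439, 4433, 4427 and 4345. These groups did not overlap WW, whereas the NE mice at 4495, 4724, 4507 and 4490 did, through replicate 3. None of the differences passed the test, which was edgeR's quasi-likelihood test with Benjamini-Hochberg adjustment over all genes. Against WW, the log2 fold change was -0.15 ± 0.058 (adjusted p = 0.514) in NW, -0.105 ± 0.032 (adjusted p = 0.116) in Water-Ethanol and -0.060 ± 0.033 (adjusted p = 0.380) in NE. With DESeq2 in place of edgeR the Water-Ethanol difference had an adjusted p of 0.0492.

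Pcdh8, also called arcadlin, is induced by neuronal activity and lowers N-cadherin at synapses, and it had the smallest Water-Ethanol difference from WW among the members. Its normalised counts were 1107, 988.2, 1001 and 1158 in WW and 1089, 1008, 1038 and 1088 in Water-Ethanol, and the groups overlapped fully. The NW mice spanned 919.6 to 1205 and the NE mice 1064 to 1150. The edgeR log2 fold changes against WW were -0.023 ± 0.082 (adjusted p = 0.959) in NW, -0.007 ± 0.058 (adjusted p = 0.963) in Water-Ethanol and 0.066 ± 0.057 (adjusted p = 0.593) in NE. The approximate 95% interval for Water-Ethanol, -0.12 to 0.11, still allows a change of the size seen for several other members. Immediate early genes, 14 activity-induced transcripts measured beside it, had lower values in NW for 12 of 14 (median log2 fold change -0.21), none of which was called. After removal of group means, Pcdh8 had Pearson's r = 0.552 with the summed level of these genes over 16 mice, and 0.518 without NW replicate 7.

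Pcdh19, an X-linked delta2 member whose mutation causes an epilepsy mainly of girls and which pairs with N-cadherin, had a mean normalised count of 2157 ± 83.1 (SD, n = 4) in WW, 1975 ± 150 in Water-Ethanol, 1939 ± 201 in NW and 2096 ± 115 in NE. The NW mice were at 1655, 1973, 2129 and 2000, and every group overlapped WW, whose lowest mouse was at 2049. The log2 fold change was -0.15 ± 0.069 in NW (edgeR adjusted p = 0.591), -0.12 ± 0.053 in Water-Ethanol (adjusted p = 0.226) and -0.040 ± 0.046 in NE (adjusted p = 0.707). Pcdh18, the rarest member and a partner of the adaptor Dab1, had 382.7, 377.0, 393.0 and 445.9 in WW. The NW mice were all lower, at 338.6, 322.1, 375.8 and 375.2. In Water-Ethanol the counts were 407.5, 361.4, 354.5 and 348.4, and in NE 386.5, 332.8, 351.3 and 335.0, with 1 mouse of each group inside the WW range. Its log2 fold change was -0.18 ± 0.080 in NW (adjusted p = 0.591), -0.115 ± 0.075 in Water-Ethanol (adjusted p = 0.421) and -0.18 ± 0.075 in NE (adjusted p = 0.248). WW replicate 21, the mouse with few cerebellar granule cell transcripts, was its highest value, and without it the values were -0.12, -0.059 and -0.13.

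Among the delta1 members, Pcdh7 followed Pcdh10 most closely in size. Pcdh7, found at dendritic spines, had normalised counts of 5998, 6059, 5909 and 5505 in WW. The Water-Ethanol mice were close together at 5220, 5168, 5176 and 5110, all below WW. The NW mice were at 4295, 5552, 5479 and 5572, and the NE mice at 5225, 5391, 5264 and 5627, each of these groups reaching into the WW range. The log2 fold change was -0.18 ± 0.037 in Water-Ethanol, with an edgeR adjusted p of 0.0539, close to but not under the threshold of 0.05. DESeq2 gave an adjusted p of 0.00145 for it and edgeR without a filter 0.0420, whereas limma on log2(FPKM + 1) gave 0.119 and the edgeR fit of all mice 0.174. With a mouse left out, the edgeR adjusted p was 0.0709 to 0.163, except 0.01015 without WW replicate 21, a setting that raised the calls among all genes from 70 to 797. In NW it was -0.17 ± 0.076 (adjusted p = 0.592) and in NE -0.12 ± 0.040 (adjusted p = 0.159). Without WW replicate 21 the adjusted p in NE was 0.0448, with 283 genes called in place of 48, and without each other mouse it was 0.141 to 0.367.

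Pcdh9, a broadly expressed delta1 member, showed smaller differences. Its counts in WW were 6874, 7095, 7070 and 6037. The NW mice had 5767, 6637, 6012 and 6581, the Water-Ethanol mice 6194, 6074, 6651 and 6411, and the NE mice 6241, 6633, 6547 and 7027. WW overlapped the treated groups only because of replicate 21 at 6037 in NW and Water-Ethanol. The log2 fold change was -0.11 ± 0.063 in NW (edgeR adjusted p = 0.656), -0.093 ± 0.052 in Water-Ethanol (adjusted p = 0.341) and -0.032 ± 0.054 in NE (adjusted p = 0.806). Without WW replicate 21 the Water-Ethanol value was -0.14 (adjusted p = 0.0426, with 797 genes called), and without each other mouse it was -0.12 to -0.070 with an adjusted p of 0.371 to 0.587.

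Pcdh1, the delta1 member best known from airway epithelium, had values of both signs against WW. WW had 3068, 3227, 3206 and 3173, and Water-Ethanol had 3110, 2880, 3035 and 3026. NE had 3194, 3598, 3386 and 3609, with 3 mice above all WW mice, and NW had 3019, 3318, 3390 and 3124. The log2 fold change was 0.021 ± 0.046 in NW (edgeR adjusted p = 0.926), -0.070 ± 0.036 in Water-Ethanol (adjusted p = 0.308) and 0.12 ± 0.043 in NE (adjusted p = 0.178). Every NE mouse was above every Water-Ethanol mouse, a log2 difference of 0.19 ± 0.044, which did not pass the adjustment over all genes (adjusted p = 0.834).

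Pcdh20 had 1583, 1564, 1460 and 1575 in WW. NW was at 1161, 1473, 1516 and 1385, Water-Ethanol at 1424, 1446, 1244 and 1525, and NE at 1344, 1392, 1265 and 1480, so each treated group had 3 or fewer mice outside the WW range. The log2 fold change was -0.16 ± 0.075 in NW (edgeR adjusted p = 0.604), -0.13 ± 0.059 in Water-Ethanol (adjusted p = 0.250) and -0.17 ± 0.051 in NE (adjusted p = 0.137).

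As a group, most members had lower values than WW in each treated group, and most had higher values in NE than in NW or Water-Ethanol. In the main edgeR fits, however, no member other than Pcdh10 was called in any comparison. In Water-Ethanol against WW, 9 of 9 members were lower (median log2 fold change -0.115), and 49.4% of all genes tested were. In this comparison 1 member, Pcdh10, was called, against 0.457% of all genes (70 of 15323); since the family was picked on this comparison nothing is read from that count. DESeq2 called 3 members there (Pcdh7, Pcdh10 and Pcdh17) among 603 genes in all, and edgeR without a filter 2 among 143. Limma on either FPKM scale called no member and no gene. Leaving out any single Water-Ethanol mouse, or WW replicate 19 or 20, left 0 members called by edgeR, and leaving out WW replicate 21 left 3 (of 797 genes). Beside Pcdh10, whose separation chose the family, Water-Ethanol lay below WW without overlap for 2 of the other 8 members (Pcdh7 and Pcdh17), and for 5.68% of all genes.

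In NW against WW, 8 of 9 members were lower (median -0.15, against 46.4% of all genes lower), and none was called, nor was any gene (0.0% of 15344). Pcdh10 aside, edgeR had 4 of the other 8 members at an unadjusted p under 0.05, all lower in NW, and 8.44% of all genes in either direction. NW was below WW without overlap for 2 of these 8 (Pcdh17 and Pcdh18) and for 4.25% of all genes. These WW mice are also those against which Pcdh10 was chosen. NW replicate 7 had the lowest count of its group for 8 of 9 members (all but Pcdh18), and without it the median was -0.085 and 7 of 9 members were lower. DESeq2 called 0 members and 123 genes.

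In NE against WW, 7 of 9 members were lower (median -0.060, against 48.6% of all genes), the exceptions being Pcdh1 and Pcdh8. None was called, against 0.313% of all genes (48 of 15313), and of the 8 members other than Pcdh10, 3 lower ones (Pcdh7, Pcdh18 and Pcdh20) and the higher Pcdh1 had an unadjusted p under 0.05 in edgeR, beside 17.5% of all genes. None of these 8 had NE below WW without overlap, against 5.51% of all genes. DESeq2 called 1 member, Pcdh10, and edgeR called 2 members when WW replicate 21 was left out. Both of these settings also called more genes in all than the 48 of the main fit. Nothing is read from a call of Pcdh10, since the family was picked for its lower ethanol values.

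The second arm of the design gave small values of the other sign. NE was above NW for 7 of 9 members (median 0.078), and 49.3% of all genes were lower in NE. EdgeR called 0 members and 0.0% of 15361 genes, and DESeq2 called 0 members. No member had an unadjusted p under 0.05 in edgeR, against 11.9% of all genes. No member's NE mice were all above its NW mice, a separation that 4.41% of all genes showed. Without NW replicate 7 the median fell to 0.028 on the log2 scale, with 4 members lower in NE. NE was above Water-Ethanol for 7 of 9 members (median 0.055), and 50.5% of all genes were lower in NE. Again edgeR called 0 members and 0.0% of 15319 genes, and DESeq2 called 0 members. An unadjusted p under 0.05 in edgeR was found for 1 member, against 5.8% of all genes. NE did not overlap Water-Ethanol for Pcdh1, Pcdh7 and Pcdh17, which were higher in all NE mice, against 1.97% of all genes. Since the paper reports a higher ethanol intake in NE, nicotine and ethanol dose cannot be told apart between these groups.

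**Figure D4:**
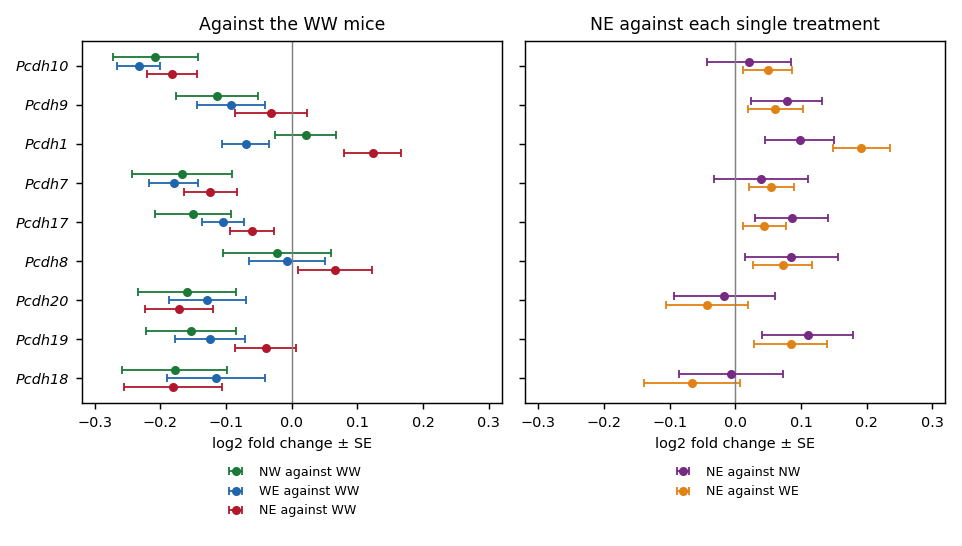
Log2 fold change ± SE of each member (edgeR), on the left for NW, Water-Ethanol and NE against the same WW mice and on the right for NE against NW and against Water-Ethanol. On the left most points lie left of 0, with Pcdh10 between -0.23 and -0.18, and on the right they lie between -0.066 and 0.19.

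The difference between the ethanol effects with and without nicotine, (NE - NW) - (Water-Ethanol - WW), was positive for 9 of 9 members. It ran from 0.099 ± 0.097 for Pcdh8 to 0.26 ± 0.078 for Pcdh10, with a median of 0.18. Pcdh19 had 0.24 ± 0.095, Pcdh7 0.225 ± 0.088 and Pcdh17 0.20 ± 0.067. Of all genes, 49.8% were negative. No member was called and 0.0% of 15592 genes were, while 5 of the 8 members other than Pcdh10 and 6.76% of all genes had an unadjusted p under 0.05 in edgeR, and DESeq2 called 0 members. Adjusted p-values of the other 8 members were 0.678 to 0.889. The WW mice enter this difference with a positive sign, and the same WW mice chose Pcdh10. Ethanol intake also differed between NE and Water-Ethanol mice in the paper, so the ethanol dose was not equal in this difference.

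The members differ in base composition. Pcdh1 (59.3% G and C in the transcript) and Pcdh8 (59.8%) were GC-rich, at the 93.5th and 94.7th percentiles of the genes tested. The other 7 lay below the median of 50.9%, from 41.3% (Pcdh17 and Pcdh19) to 48.9% (Pcdh7). Pcdh1 and Pcdh8 were also the members with the smallest decrease or an increase against WW in each treated group. Among the other 7 the order differed. Pcdh17 and Pcdh19, the lowest in GC, had smaller decreases in Water-Ethanol and NE than Pcdh10 (47.5%) and Pcdh7. A correction of every library for its trend on GC content, an alternative added after seeing the data, narrowed the spread among members. The median in NW then was -0.080 with 9 of 9 lower, in Water-Ethanol -0.10 with 9 of 9 lower, and in NE -0.008 with 5 of 9 lower. Pcdh10 kept -0.22 in Water-Ethanol, -0.18 in NW and -0.16 in NE after the correction, whereas Pcdh17 went to -0.065, -0.044 and 0.008 and Pcdh19 to -0.083, -0.046 and 0.029. In the same order of groups, the GC-rich Pcdh1 went to -0.115, -0.038 and 0.051 and Pcdh8 to -0.052, -0.080 and -0.008.

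Brain regions differed between libraries beside the members. WW replicate 21, low in cerebellar granule cell markers, had the lowest Pcdh7, Pcdh9 and Pcdh19 counts of WW and the highest Pcdh8, Pcdh10, Pcdh17 and Pcdh18 counts. NW replicate 10, the other such brain, had the highest counts of NW for Pcdh1, Pcdh8, Pcdh10, Pcdh17, Pcdh18, Pcdh19 and Pcdh20, so that Pcdh19 was at opposite ends of its group in these brains. Without WW replicate 21, Pcdh10 stood at -0.22 in Water-Ethanol, -0.19 in NW and -0.17 in NE. Summed olfactory bulb markers were 39.62 to 43.02 FPKM in WW. They were low in Water-Ethanol replicate 15 (22.24 FPKM), NW replicate 11 (27.43 FPKM) and NE replicate 4 (24.74 FPKM). Water-Ethanol replicate 15 and NE replicate 4, but not NW replicate 11, had the lowest Pcdh20 counts of their groups. With group means removed, Pcdh20 had Pearson's r = 0.416 with these markers, and 0.681 without NW replicate 7. The part of these markers in the Pcdh20 values was not tested.

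Other marker lists also differed between groups beside the members. Summed cortical excitatory markers were 264.8 to 284.9 FPKM in WW, 233.3 to 262.5 in Water-Ethanol, 238.3 to 281.5 in NW and 246.6 to 267.8 in NE, with 6 of 8 genes lower in Water-Ethanol than in WW. All 6 microglia markers were lower in Water-Ethanol (median log2 fold change -0.23, about that of Pcdh10) and in NE (-0.22), and 5 of 6 in NW (-0.030). All 6 pericyte markers were lower in Water-Ethanol (-0.16) and NE (-0.16), and 4 of 6 in NW (-0.025). Their summed level was 85.41 to 92.54 FPKM in WW, 75.8 to 80.55 in Water-Ethanol, 80.36 to 96.02 in NW and 79.12 to 81.82 in NE, so the ethanol groups did not overlap WW. All 6 oligodendrocyte markers were lower in Water-Ethanol (-0.15) and NE (-0.13), and 5 of 6 in NW (-0.032). The 6 meningeal fibroblast markers were lower in all 3 treated groups, by medians of -0.23 in Water-Ethanol, -0.17 in NW and -0.35 in NE. Granule cell markers went the other way, with 0 of 9 lower in Water-Ethanol (0.23) and NE (0.18). No gene of these lists was called. Of the other marker lists, edgeR called Kcnj13 of the choroid plexus higher than WW in Water-Ethanol (0.63 ± 0.089, adjusted p = 0.0357) and NE (0.54 ± 0.089, adjusted p = 0.0372). It called Slco1a4 of the endothelium lower than WW in NE (-0.31 ± 0.043, adjusted p = 0.0259). In these comparisons 0.457% and 0.313% of all genes were called. The part of the marker lists in the values of Pcdh10 and the other members was not tested.

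Within groups the markers moved with the members to different degrees. After removal of group means, Pearson's r of Pcdh10 with the summed level of 16 marker lists over 16 mice ran from -0.589 (pericytes) to 0.771 (cortical excitatory neurons). Without NW replicate 7 it ran from -0.536 (granule cells) to 0.657 (microglia), and that with the cortical markers was 0.467. For Pcdh8 it ran from -0.806 (astrocytes) to 0.478 (cortical excitatory neurons), and for Pcdh9 from -0.578 (hypothalamic neuropeptides) to 0.649 (granule cells). Without NW replicate 7, Pcdh8 ran from -0.829 (astrocytes) to 0.614 (hypothalamic neuropeptides), and its cortical value was 0.135. Pcdh9 then ran from -0.569 (hypothalamic neuropeptides) to 0.824 (granule cells). Member and marker values of a mouse come from the same library and share its depth, so the coefficients are descriptive.

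Members also varied together among mice of the same group. With group means removed, Pcdh10 and Pcdh17 had Pearson's r = 0.912 over 16 mice, Pcdh7 and Pcdh17 0.806, and Pcdh7 and Pcdh19 0.789. Pcdh18 and Pcdh9 were less like Pcdh10, with r = 0.206 and 0.251. Pcdh18 had r = -0.579 with Pcdh9 and 0.52 with Pcdh8. Much of the likeness came from NW replicate 7, the mouse low in most members. Without it, over 15 mice, Pcdh10 had r = 0.614 with Pcdh1, 0.593 with Pcdh8 and 0.586 with Pcdh17, so that Pcdh17 was no longer first. Pcdh7 and Pcdh17 had -0.263, Pcdh7 and Pcdh10 -0.172 (0.756 with it), and Pcdh7 and Pcdh19 0.531. The pair of Pcdh7 and Pcdh9 rose from 0.691 to 0.809 in r, and Pcdh8 and Pcdh9 went from -0.287 to -0.725.

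**Figure D5:**
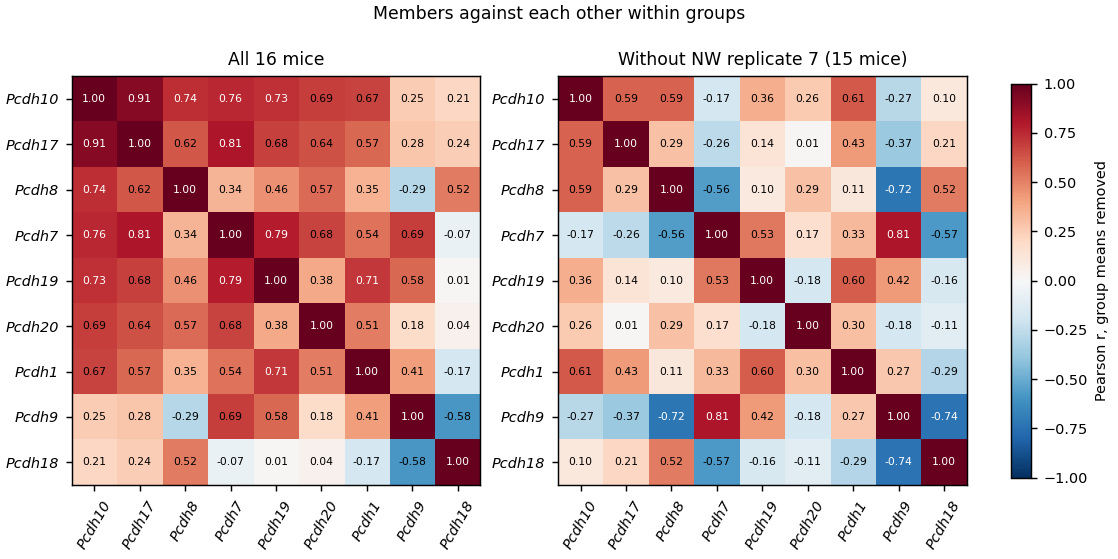
Pearson's r between members over mice after removal of group means, for all 16 mice (left) and without NW replicate 7 (right). The link of Pcdh10 with Pcdh17 drops from 0.912 to 0.586 and that of Pcdh7 with Pcdh17 from 0.806 to -0.263, while Pcdh7 and Pcdh9 stay close.

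The genes most like Pcdh10 by the same measure were Map9 (r = 0.96), Rnf24 (0.953), Synj1 (0.947), Epha4 (0.94) and Map2k4 (0.932), the top 5 of 15591. Map9 encodes a microtubule-associated protein, Synj1 a phosphatase of synaptic vesicle recycling, Epha4 an ephrin receptor of axon guidance and Map2k4 a kinase of the JNK pathway. Pcdh17 ranked 15 among these genes. The median r with Pcdh10 was 0.02 and the 95th percentile 0.685. Without NW replicate 7 they had r = 0.861, 0.802, 0.818, 0.783 and 0.696, and the 95th percentile was 0.578.

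Among the genes that work with protocadherins, edgeR called 1 gene in Water-Ethanol against WW and 1 in NE against WW, where 0.457% and 0.313% of all genes were called. Of the 9 genes of the WAVE complex, 9 were lower in Water-Ethanol than in WW (median -0.077) and none was called. In NE 8 were lower (median -0.075) and Cyfip1, which links the complex to Rac, fell by 0.17 on the log2 scale (SE 0.031, edgeR adjusted p = 0.0453). Leaving out a single mouse could leave no gene called in this comparison. In NW 6 were lower (median -0.044) and none was called. The most abundant subunits were Cyfip2 (176 FPKM), Nckap1 (169 FPKM), Brk1 (107 FPKM) and Wasf1 (80.5 FPKM), and Wasf1 was at -0.15 ± 0.041 in Water-Ethanol (adjusted p = 0.0860). Among 18 partners and regulators, 12 were lower in Water-Ethanol (median -0.019), and Mef2c, a transcription factor of the family that drives synapse elimination through Pcdh10, fell by 0.31 (SE 0.055, edgeR adjusted p = 0.0450). No gene was called in that comparison by limma on either FPKM scale, or by edgeR without WW replicate 19. In NW 12 of 18 and in NE 10 of 18 were lower, with none called. Dlg4, the scaffold PSD-95 that Pcdh10 delivers to the proteasome, was at -0.071 in Water-Ethanol, 0.049 in NW and 0.010 in NE, with no call.

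Related adhesion genes are given for comparison. Pcdh11x, at 3.67 FPKM, was lower than WW by a similar amount in all 3 treated groups, -0.18 ± 0.045 in Water-Ethanol, -0.17 ± 0.068 in NW and -0.19 ± 0.046 in NE, with edgeR adjusted p-values of 0.0819, 0.528 and 0.0835. Of the other 3 non-clustered or related genes, Pcdh15 (2.51 FPKM) and Cdhr1 (7.87 FPKM) were also not called, nor was Pcdh12, which was nearly absent at 0.135 FPKM. Of 59 clustered protocadherins 56 were tested, with 47 lower in Water-Ethanol (median -0.14), 31 lower in NW (median -0.004) and 34 lower in NE (median -0.044), none called. Whether reads of these similar genes were split correctly is uncertain. Of 19 classical cadherins, 8 were lower in Water-Ethanol (median 0.014), and only Cdh12 was called, which fell by 0.27 (SE 0.052, edgeR adjusted p = 0.0471). Like Mef2c, it was not called by limma on either FPKM scale. In NW 9 of 19 were lower and in NE 8 of 19, with no call. None of the 7 catenins, the cytoplasmic partners of classical cadherins, was called, and neither was any of the 11 tested Fat, Dachsous, Celsr and calsyntenin genes.

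In the count table the members lie on 5 chromosomes of mm10 (GRCm38). Pcdh8 (chr14:79766772-79771312), Pcdh9 (chr14:93013700-93890669), Pcdh17 (chr14:84443563-84537060) and Pcdh20 (chr14:88464747-88471396) share chromosome 14, and Pcdh10 (chr3:45378398-45434579) and Pcdh18 (chr3:49743296-49757316) share chromosome 3. Pcdh7 is at chr5:57718021-58132240, Pcdh19 at chrX:133582861-133688993 and Pcdh1 at chr18:38196694-38209762. The span ran from 4.54 kb (Pcdh8) to 877 kb (Pcdh9), and the longest exon held 39.3% (Pcdh10) to 95.2% (Pcdh20) of the exonic bases. GENCODE places genes of the other strand over exons of Pcdh7 (4932441J04Rik, 24.0% of its exonic bases), Pcdh8 (Gm9748, 10.9%), Pcdh10 (1700027H10Rik, 1.31%) and Pcdh19 (Gm26851, 0.554%). How reads were assigned to strands in counting is not given in the sources used here, so reads of such pairs could be mixed. The authors counted 4932441J04Rik at 9 to 23 reads and 1700027H10Rik at 0 to 2, against at least 4554 for Pcdh7 and 6394 for Pcdh10.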

How the data were processed

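RNA was measured in 1 library per mouse, 16 mice in all, and groups were taken from the labels. Per the labels and the methods, the authors trimmed reads with Trimmomatic 0.32 and aligned them to mm10 (GRCm38) with TopHat2. The authors deposited raw counts per gene for 24062 genes and FPKM per gene from the Cufflinks tools for 23991 genes, which carry no read depth; the counting program is not given in the sources used here. The labels name an unstranded library kit and the methods a stranded protocol.

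Counts were tested with edgeR 4.0.16 (TMM, default filter on low counts, quasi-likelihood test, R 4.3.3) in fits of the 2 groups compared, and the interaction in a fit of all 16 mice. Benjamini-Hochberg adjustment covered all genes tested, with a threshold of 0.05. SEs were obtained as |log2 fold change|/√F, and approximate 95% intervals follow from it. All 9 members passed the filter. Alternatives were RLE factors, DESeq2 1.42.0, no filter, limma 3.58.1 on log2(FPKM + 1) or log2(FPKM + 0.1) for genes with a mean of at least 0.1 FPKM, a fit of all mice, leaving out each mouse and, added after the data were examined, a GC correction (lowess span 0.3). In simulated counts for the Water-Ethanol comparison, with 200 of 15237 genes changed 2-fold, 93.9% were recovered, with 10 false calls. The differences of the members were far smaller than 2-fold, so this recovery does not apply to them. Other work used Python 3.11.15.

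The members and gene lists were chosen with earlier results of these data known. The members are all named. From the other lists every gene called by edgeR and some of the most abundant are named. The 5 genes closest to Pcdh10 by within-group correlation are named too. Leaving NW replicate 7 out of the correlations and the count per FPKM were chosen after the data were examined. Litters and batches are not labelled, so p-values measure the spread between these mice.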

Additional observations from a re-analysis of the deposited data

Results flagged for a closer look

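In 5 of 36 sets of 4 mice (9 members in 4 groups) the extreme mouse lay far from the others for its group's range. For a single set, chance alone gives about 1 in 20. The 9 members share the same mice, so the sets are not independent and no excess is read from the count. NW replicate 7 had 4295 normalised counts of Pcdh7 against 5479 to 5572 in the other NW mice, and 3739 of Pcdh17 against 4417 to 4524. Water-Ethanol replicate 16 had 4345 of Pcdh17 against 4427 to 4439, a small gap in a tight group. NE replicate 3 had 4724 of Pcdh17 against 4490 to 4507, and it is the mouse through which NE overlapped WW for this gene. WW replicate 20 had 1460 of Pcdh20 against 1564 to 1583.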

How the results depend on the processing

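Members called in Water-Ethanol against WW numbered 1, and 3 with DESeq2, 2 with no filter, 0 with either FPKM test or the fit of all mice, and 0 to 3 when a mouse was left out. In NE against WW there were 0, and 1 with DESeq2 and 0 to 2 with a mouse left out. These member counts take in Pcdh10, for which the family was picked, so nothing is read from its part in them. Genes called in NW against WW numbered 0, and 123 with DESeq2 and 112 with all mice. In Water-Ethanol against WW there were 70, and 603 with DESeq2, 143 with no filter, 0 with either FPKM test, 28 with all mice, 43 after GC correction and 0 (for example without WW replicate 19) to 797 (without WW replicate 21) with a mouse left out. In NE against WW there were 48, and 517 with DESeq2, 1 with either FPKM test, 13 after GC correction and 0 to 283 with a mouse left out. In NE against NW there were 0, and 94 with DESeq2, 3 with either FPKM test and 57 with all mice. In NE against Water-Ethanol there were 0, and 2 with DESeq2, 1 with no filter, 1 with either FPKM test and 0 to 1 with a mouse left out, and the interaction had 0, and 2 with DESeq2. Why these counts moved was not tested.

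Of 873 alternative values for 54 log2 fold changes of members, 25 changed sign, all of them for values between -0.060 and 0.066. In NW against WW, Pcdh1 went to -0.038 after GC correction and ran from -0.014 to 0.048 with a mouse left out, and Pcdh8 from -0.105 to 0.032. In Water-Ethanol against WW, Pcdh8 was at 0.0 and 0.001 on the FPKM scales and ran from -0.042 to 0.036. In NE against WW, GC correction gave -0.008 for Pcdh8, 0.011 for Pcdh9, 0.008 for Pcdh17 and 0.029 for Pcdh19. In NE against NW, Pcdh10 was at -0.020 on either FPKM scale and ran from -0.045 to 0.061, Pcdh7 from -0.043 to 0.070, Pcdh18 from -0.060 to 0.023 and Pcdh20 from -0.091 to 0.029. No paired analysis was possible because the groups share no replicate number. FPKM carry no depth, and 4 mice per group limit the precision of differences of this size.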
